A study of Mus musculus with 12 samples.

Results

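A set of 10 genes commonly read as marks of myeloid blood cells was followed through every one of 12 single cultured cardiac progenitor cells, and cell CPC3 was set against the other 11 cells. The 10 genes were Cd53, Lyz2, Csf1r, Cd68, Tyrobp, Fcer1g, Laptm5, Ptprc, Spi1 and Itgam, out of 21729 genes in the count table. Both the genes and CPC3 were picked with values of these cells known, so the contrast between CPC3 and the other cells is given as a description and no test was made of it. The values did not bear out a myeloid signature across the 10 genes. Of the 10 genes, 5 (Tyrobp, Fcer1g, Laptm5, Spi1 and Itgam) had no count in any cell, though the Itgam 0 is uncertain. Ptprc had none in CPC3, and Cd53 made up 90.2% of the summed CPC3 level. Without Cd53, CPC3 still had the highest sum, at 158 CPM beside up to 75.6 CPM. Genes outside the 10 that are tied to myeloid cells went both ways in CPC3, as given below. The group is therefore called the 10 listed genes below, and CPC3 is given no cell type name.

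The cells are labelled c-Kit+ cardiac progenitor cells (CPCs) and came from 12-week-old female FVB mice, with no transgene or treatment named. Non-myocytes of the heart, which the study pooled from a pair of animals per preparation, were depleted of cells bearing blood lineage antigens, and c-Kit+ cells were then held back on magnetic beads. The lineage-negative, c-Kit+ cells were grown on gelatin in serum medium with leukemia inhibitory factor, basic fibroblast growth factor and epidermal growth factor, and were passaged 5 times. Single cells were picked by mouth pipette and copied with Smart-Seq v4, which reads whole transcripts. All 12 cells form 1 group, the labels name no animal or culture for any cell, and cells are not replicates of a condition, so the group counts as 1 sample.

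Totals ran from 3453708 to 5690184 counts per cell, with 3792589 in CPC3. CPC3 had 11216 genes with a count (10022 to 11950 over the 12 cells) and a mitochondrial share of 2.33% (1.02 to 2.77%). A gene without a count could lie at up to 0.527 to 0.869 CPM (counts per 1000000 counts of the cell), the level of 3 counts, depending on the cell. Limits and intervals cover counting error only, since the reads carry no molecular identifiers. The c-Kit label dates from the sort before culture: in the sequenced cells Kit, which encodes c-Kit, had 21 counts in CPC10 (3.94 CPM) and no count in the other 11 cells, CPC3 among them. The label gives female mice, and yet the summed level of Ddx3y, Eif2s3y, Kdm5d and Uty, which lie on the Y chromosome, was 9.76 CPM in CPC3 and 63.7 to 267 CPM in the other 11 cells (median 180 CPM). CPC3 therefore also stood apart from the other cells in a measure outside the 10 genes, and the part of this mismatch in the results below was not tested.

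Myeloid cells arise from blood progenitors under the control of PU.1, the transcription factor encoded by Spi1, which binds a purine-rich motif called the PU box. Macrophages, their tissue-resident form, live on signals through the receptor Csf1r, sense their surroundings through receptors coupled to the adaptors Tyrobp and Fcer1g, adhere through the integrin encoded by Itgam, and digest what they engulf in lysosomes rich in Lyz2 and Cd68. The heart holds many resident macrophages, and all leukocytes carry the phosphatase CD45, encoded by Ptprc.

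The PU box was searched for as GAGGAA on both strands in the RefSeq window of each gene (build GRCm38.p6, from 250 bases before to 50 bases after the start), because Spi1 is itself among the 10 genes. A window was at hand for 7 of the 10 genes. Csf1r, Tyrobp and Spi1 are named only. The letters were found for 5 of the 7 genes (Cd53, Ptprc, Laptm5, Itgam and Cd68). The figure set beside this, 28.3% of all 32851 windows, is a share of windows and not of genes. Of these 5 genes, Cd53 had counts chiefly in CPC3, Cd68 had counts in 11 cells, Ptprc in 2, and Laptm5 and Itgam in none. The Cd53 sequence is shown because Cd53 made up most of the summed CPC3 level. The sequence covers the 250 bases before the start, chr3:106790150-106790399 on the minus strand. The capitals mark the Runx motif TGTGGT at its 5′ end and the PU box.
Cd53: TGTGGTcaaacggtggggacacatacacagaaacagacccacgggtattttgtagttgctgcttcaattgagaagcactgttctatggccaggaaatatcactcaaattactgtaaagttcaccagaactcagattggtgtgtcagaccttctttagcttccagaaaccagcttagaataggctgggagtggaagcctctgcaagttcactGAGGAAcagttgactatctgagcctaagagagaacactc

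Stretches of 30 bases around the first PU box of the other 4 genes are shown because they set the same letters beside a gene with counts (Cd68) and beside genes with few or none. They lie at chr11:69666378-69666407 (Cd68, minus strand), chr1:138175446-138175475 (Ptprc, minus strand), chr4:130913266-130913295 (Laptm5, plus strand) and chr7:128062544-128062573 (Itgam, plus strand). Capitals mark the PU box, which in Laptm5 reads TTCCTC, its complement on the other strand.
Cd68: tttcttaccaatGAGGAAagggcttcccat
Ptprc: tgttttcctttaGAGGAAaattgagacgaa
Laptm5: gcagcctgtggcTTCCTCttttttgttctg
Itgam: tgttttctcccgGAGGAAggctacagaggg

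Counted from the start, the PU box shown began at position -39 in Cd53, -225 in Cd68, -158 in Ptprc, -38 in Laptm5 and -84 in Itgam. The Runx motif TGTGGT was found in the windows of Cd53, Lyz2 and Fcer1g and in 16.8% of all windows. The C/EBP motif TTGCNNAA was found in that of Cd68 (10.8% of all windows), and the TATA box TATAAA in those of Laptm5 and Ptprc (13.6%). No motif match overlapped another in these windows. Such matches describe letters in a window and are not binding sites.

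Of the 10 genes, 4 had their highest CPM in CPC3 (Cd53, Lyz2, Csf1r and Cd68), beside 7.63% of all genes with a count. At the same time 5 of the 10 had no count in any cell, beside 33.4% of all genes in the table, and 85 of the 120 values of 10 genes in 12 cells were 0. A gene was called in CPC3 when it had 30 counts or more there and at least 10 times the CPM of the highest other cell. Of the 10 genes, 1 (Cd53) was called, beside 0.465% of the genes that could be called. The same 4 genes were the ones at 10 CPM or more in CPC3, beside 33.6% of all genes in the table. The median difference between CPC3 and the median of the other cells was 0 over the 10 genes and 0 over all genes with a count, on the log2(CPM + 1) scale. The first 0 says little, since most of the 10 genes were at 0 both in CPC3 and in the median other cell. Over the 5 listed genes with a count in any cell the median difference was 3.29. Those values were known when the genes and CPC3 were picked.

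**Figure D1:**
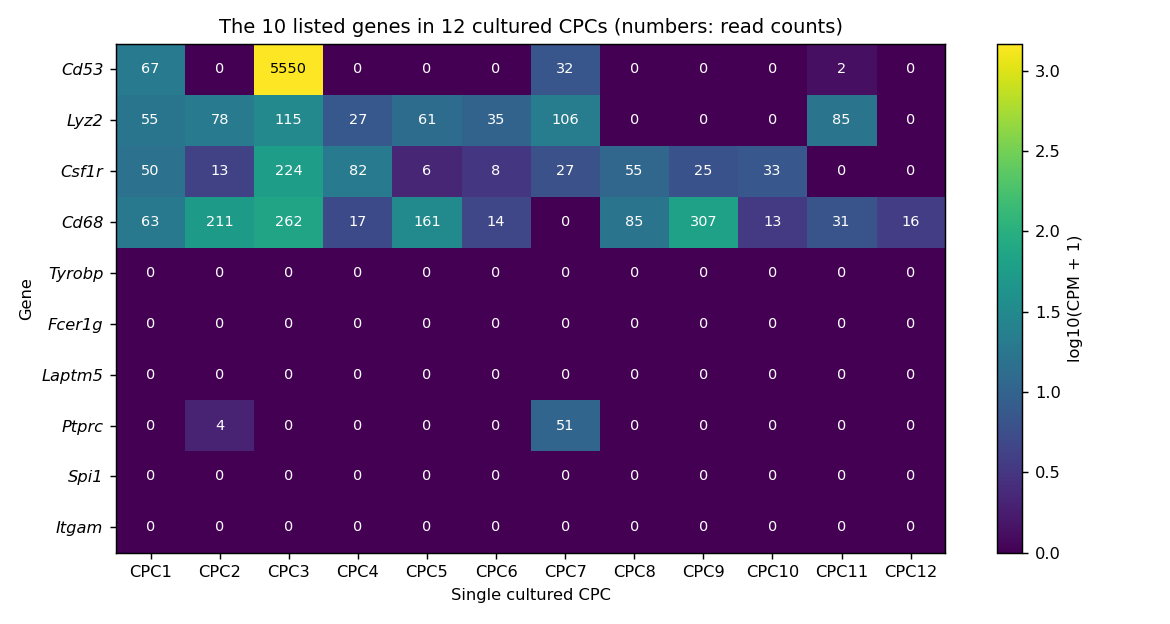
Grid of the 10 listed genes (rows) in the 12 cells (columns), coloured by log10(CPM + 1), with the read count written in each box. The brightest box is Cd53 in CPC3 with 5550 counts, Lyz2, Csf1r and Cd68 are coloured in 8, 10 and 11 cells, and 5 rows are at 0 throughout.

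Cd53 encodes a tetraspanin, a 4-pass membrane protein of leukocytes that holds other receptors in place at the cell surface. It lies at chromosome 3, 106759921 to 106790149, on the minus strand (mm10, GENCODE vM21, 8 exon blocks), and no other annotated exon overlaps it. CPC3 had 5550 Cd53 counts. CPC1 had 67 counts, CPC7 had 32, CPC11 had 2, and the remaining 8 cells had none.

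In CPM, Cd53 stood at 1463 in CPC3 (exact 95% Poisson interval 1425 to 1502), 19.4 in CPC1, 6.09 in CPC7 and 0.361 in CPC11. Thus 1 cell was high, a pair of cells were low but above the level of 3 counts, and CPC11 was below it. The CPC3 level was 75.4 times that of CPC1, with a counting interval of 59.3 to 97.5. The spread over the 12 cells, 124 ± 422 CPM (mean ± SD), was that of a gene carried by 1 cell, and without CPC3 it was 2.35 ± 5.94 CPM. Within CPC3, Cd53 took 0.146% of all counts and ranked 73 among all genes by CPM.

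The Cd53 counts of the other cells were set beside the same count for the other 19 of the 20 genes by which CPC3 stood highest above every other cell. In CPC1, Cd53 had 1.21% of its CPC3 counts and the 19 genes together had 0.461% of theirs (79 of 17145 counts). In CPC7 the shares were 0.577% for Cd53 and 0.496% for the 19 genes. CPC12 and CPC4 had no Cd53 count, while they held 0.367% and 0.356% of the CPC3 counts of the 19 genes. CPC1 and CPC7 had the most Cd53 counts outside CPC3, 67 and 32. They also had the most counts of the 19 genes, 79 and 85, followed by CPC12 and CPC4 with 63 and 61. Beyond CPC1 and CPC7, counts of Cd53 and of the 19 genes did not lie in the same cells. All 20 genes were picked for standing low in every other cell, so small shares there follow from that choice. Single genes also supplied much of some sums: Gsta3 gave 56 of the 85 counts in CPC7, and Zbp1 40 of the 63 in CPC12. Whether reads passed between libraries was not tested.

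The genes beside Cd53 on chromosome 3 were read to see whether the CPC3 signal extended along the chromosome. Dram2, a lysosomal membrane protein of autophagy, stood at 93.6 CPM in CPC3 and at 14.3 to 111 CPM in the other cells (median 56.5 CPM). Lrif1, a nuclear protein, stood at 18.7 CPM in CPC3 and at 0 to 67.6 CPM in the others (median 41.9 CPM). Kcna3, a potassium channel of lymphocytes, and Olfr266 had no count in any cell. CPC3 lay within the range of the other cells in both neighbours with counts.

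Tetraspanins are a large family of which most cells express several, and 31 members were looked up after the Cd53 values were seen. Of these, 26 had a count in some cell and 15 reached 10 CPM in CPC3. Cd53 was the 1 gene of the family called in CPC3. Of the 26, 2 (Cd53 and Cd9) were highest there, a share near the 7.63% of all genes with a count. Cd63, a tetraspanin of lysosomes, stood at 2085 CPM in CPC3, Cd81 at 1577 CPM and Cd9 at 1162 CPM, whereas Cd37, the other tetraspanin best known from leukocytes, had no count in any cell.

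**Figure D2:**
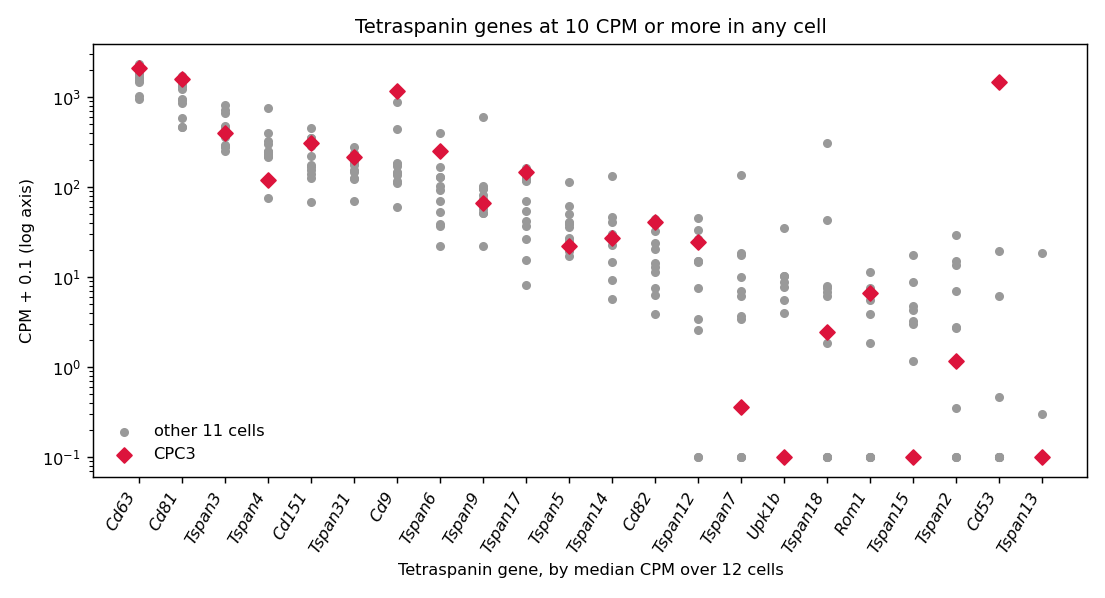
CPM + 0.1 (log axis) of the tetraspanin genes that reach 10 CPM in any cell, ordered by their median, with CPC3 as a diamond and the other 11 cells as points. Cd53 lies near the right end by its median, yet CPC3 stands at 1463 CPM there, and in most other tetraspanins CPC3 lies within the range of the other cells.

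Lyz2, Csf1r and Cd68 were also highest in CPC3, yet each had counts in most cells and CPC3 exceeded the next cell by far less. Lyz2 encodes lysozyme M, the bacterial wall enzyme of macrophages and neutrophils (chromosome 10, 117277331 to 117282321, minus strand). Its counts in CPC1 to CPC12, in that order, were 55, 78, 115, 27, 61, 35, 106, 0, 0, 0, 85 and 0. CPC3 stood at 30.3 CPM and the other cells ran from 0 to 20.2 CPM in CPC7, with a median of 9.30 CPM.

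CPC3 was 1.5 times CPC7 for Lyz2 (counting interval 1.15 to 1.98), and 4 cells had no count. The mean over the 12 cells was 10.7 ± 9.89 CPM. Lyz1, the close copy of Lyz2 in mouse, had no count in any cell. Reads that fit both copies are lost when only uniquely mapped reads are kept, so the Lyz2 level may be too low.

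Csf1r encodes the receptor for the growth factors Csf1 and Il34, on chromosome 18. Its counts in CPC1 to CPC12 were 50, 13, 224, 82, 6, 8, 27, 55, 25, 33, 0 and 0. CPC3 stood at 59.1 CPM, the next cell, CPC4, at 19.7 CPM, and the median of the other cells was 5.13 CPM. The ratio of CPC3 to CPC4 was 3.01 (counting interval 2.32 to 3.92), the largest step after that of Cd53 among the 10 genes.

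Of the Csf1r exon bases, 15.1% lie under exons of Hmgxb3 on the opposite strand, and the strand rule of the counting is not stated. Hmgxb3 itself stood at 0.791 CPM (3 counts) in CPC3 and at 2.64 to 19.5 CPM in the other cells (median 10.3 CPM). CPC3 thus had the highest Csf1r and the lowest Hmgxb3 level of the 12 cells. In cells with few Csf1r counts, such as CPC5 with 6, reads of the 2 genes cannot be told apart.

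Cd68 encodes macrosialin, a glycoprotein of late endosomes and lysosomes that macrophages carry in large amounts (chromosome 11, 69664213 to 69666153, minus strand). Its counts in CPC1 to CPC12 were 63, 211, 262, 17, 161, 14, 0, 85, 307, 13, 31 and 16. CPC3 stood at 69.1 CPM and CPC9 at 64.4 CPM, and the ratio of these cells, 1.07, had a counting interval of 0.907 to 1.27 that includes 1. CPC2 followed at 52.1 CPM and CPC5 at 32.0 CPM, and the median of the other 11 cells was 5.59 CPM. Per kilobase of exon, scaled within each cell, CPC9 was the higher of the pair (153 beside 139), so on that scale 3 and not 4 of the listed genes were highest in CPC3. Cd68 thus did not set CPC3 apart from CPC9 beyond counting error.

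The spread of these 3 genes over cells was wide, with means of 10.5 ± 16.4 CPM for Csf1r and 22.5 ± 25.6 CPM for Cd68 over the 12 cells. Without CPC3 they were 6.11 ± 6.27 CPM and 18.3 ± 22.1 CPM, and Lyz2 was 8.96 ± 8.11 CPM. The SD was close to the mean or above it in every case. The genes also did not rise in the same cells. Over the 11 cells without CPC3, Pearson's r of log2(CPM + 1) was -0.04 for Lyz2 and Csf1r, -0.05 for Lyz2 and Cd68 and 0.08 for Csf1r and Cd68. With CPC3 the values were 0.19, 0.11 and 0.31. These are descriptions over 11 or 12 cells of 1 group that differ in depth and whose cultures are not named.

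Ptprc, the general leukocyte phosphatase, had counts in 2 cells (chromosome 1, 138062861 to 138175708, minus strand). CPC7 had 51 counts, CPC2 had 4, and the remaining 10 cells, CPC3 among them, had none. This amounted to 9.70 CPM in CPC7 and 0.988 CPM in CPC2. CPC7 also had 32 Cd53 counts and 106 Lyz2 counts but no Cd68 count. In CPC3, a Ptprc level of more than 0.791 CPM would have exceeded the 3 counts that an observed 0 allows.

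Tyrobp and Fcer1g, the membrane adaptors through which many myeloid receptors signal, had no count in any cell (chromosome 7, 30413760 to 30417585, plus strand, and chromosome 1, 171229572 to 171234365, minus strand). Laptm5, a lysosomal membrane protein of blood cells (chromosome 4, 130913125 to 130936141, plus strand), had none either. The same was true of Spi1, which encodes PU.1 (chromosome 2, 91082390 to 91115756, plus strand). Itgam, the alpha chain of the integrin Mac-1 (chromosome 7, 128062640 to 128118491, plus strand), also had none, and 68.7% of its exon bases lie under Gm49368 on the same strand, a gene model without a row in the table. Whether the authors' counting set aside reads in that stretch is not known, so the Itgam 0 is uncertain. Over the 56346231 counts of the 12 cells together, a count of 0 allows up to 0.0532 CPM. In the single cell CPC3 it allows up to 0.791 CPM. Both limits are set at 3 counts, and they cover counting error only and not transcripts lost before sequencing.

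Levels of different genes were compared per kilobase of exon, scaled to 1000000 per cell. In CPC3 the order was Cd53 at 2130, Cd68 at 139, Lyz2 at 58.4, Csf1r at 25.9 and Ptprc at 0. The median of the other 11 cells gave another order, with Lyz2 at 19.7, Cd68 at 13.0, Csf1r at 2.48 and both Cd53 and Ptprc at 0. The gene that led in CPC3 was thus at 0 in the median cell, and Lyz2 and Cd68, neighbours at the top of the second order, differed by less than the spread of either gene over cells. Per kilobase, Cd53 ranked 64 among all genes of CPC3.

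**Figure D3:**
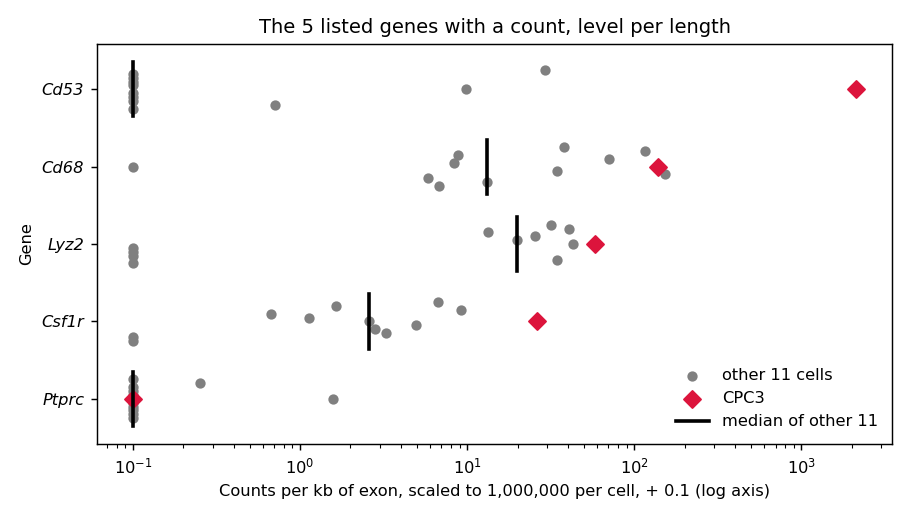
Level of the 5 listed genes with counts, in counts per kilobase of exon scaled to 1000000 per cell (plus 0.1, log axis), with CPC3 as a diamond, the other 11 cells as points and their median as a bar. Cd53 stands at 2130 in CPC3 and at 0 in the median of the other cells, while Lyz2 and Cd68 lead in that median at 19.7 and 13.0. For Cd68, CPC9 lies above CPC3.

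The summed level of the 10 genes was 1622 CPM in CPC3, and the other cells ran from 2.81 CPM in CPC12 to 75.6 CPM in CPC2, with a median of 30.2 CPM. CPC3 held 80.1% of the sum over all cells, of which Cd53 made up 90.2% of the CPC3 part. Without Cd53 the CPC3 sum was 158 CPM and its share was 29.6%. CPC2 and CPC9 then followed at 75.6 and 69.6 CPM, mostly from Cd68. Outside CPC3, 13 of 110 values reached 10 CPM (11.8%), beside 36.1% of values over all genes. A count was present in 31 of the 110 values (28.2%), beside 50.4% over all genes. Only 1 of these 13 values came from a gene other than Lyz2, Csf1r and Cd68, the Cd53 value of CPC1.

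Lists of blood cell genes were then read in the same cells, the lists having been drawn up with earlier results known. Taken as 1 set, 7 lists of pan-leukocyte, ITAM signalling, macrophage, integrin, neutrophil, mast and lymphocyte genes held 85 genes beyond the 10. Of these, 42 had no count in any cell, beside 33.4% of all genes in the table. In CPC3, 16 had a count, beside 11216 of all 21729 genes, and 9 reached 10 CPM, beside 33.6% of all genes. Of those with a count in any cell, 6 were highest in CPC3, beside 7.63% of all genes with a count. Of the 85, 1 (S100a8) was called, beside 0.465% of the genes that could be called. The summed level of the 85 genes was 1171 CPM in CPC3 and 117 to 557 CPM in the other cells (median 207 CPM). Arhgdib and S100a8 supplied most of the CPC3 sum.

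Among 17 further pan-leukocyte genes, 9 had no count in any cell, including Cd52, Was, Lcp1, Ikzf1 and Vav1. Arhgdib, a regulator of the cytoskeleton that is abundant in blood cells, stood at 699 CPM in CPC3. It had counts in all 12 cells, and the other 11 ran from 33.7 to 204 CPM with a median of 54.7 CPM. Evi2a stood at 38.8 CPM in CPC3 beside a highest other value of 36.2 CPM. Inpp5d, Hcls1 and Ptpn6, phosphatases and a signalling protein of blood cells, were instead highest in other cells, at 79.0 CPM in CPC10, 66.7 CPM in CPC10 and 37.5 CPM in CPC6.

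Of the 14 genes of immunoreceptor (ITAM) signalling that had a row, none was highest in CPC3, beside 7.63% of all genes with a count. At that share, few genes of so short a list would be highest there in any case. The summed level was 87.5 CPM in CPC3 and 70.8 to 130 CPM in the other cells (median 98.5 CPM). Syk, the kinase that binds phosphorylated ITAM adaptors, stood at 29.3 CPM in CPC3 and at up to 56.5 CPM elsewhere. Lyn, a Src family kinase, stood at 15.6 CPM and at 9.15 to 80.5 CPM. Both kinases were within the range of the other cells, while Btk, Lcp2, Fgr and the receptor Fcgr1 had no count in any cell.

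Ligands of Csf1r were measured beside the receptor. Csf1 stood at 725 CPM in CPC3 and at 148 to 2480 CPM in the other cells (median 535 CPM), so every cell had it. Il34, the second ligand, stood at 40.6 CPM in CPC3 and at 0 to 21.6 CPM elsewhere (median 9.55 CPM). Csf2ra stood at 10.0 CPM in CPC3 and at up to 8.76 CPM in the others, and its partner chain Csf2rb and the receptor Csf3r had no count in any cell. CPC3 was thus highest for Il34 and for Csf1r, but not for Csf1.

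Of 13 further transcription factors of the myeloid lineage, 10 had a count in some cell and Tfec alone was highest in CPC3. That is a share near the 7.63% of all genes with a count. Tfec, a macrophage-enriched relative of the lysosomal regulator Tfeb, stood at 52.7 CPM in CPC3 and at 0 to 8.89 CPM elsewhere, with a median of 0. Cebpb stood at 92.3 CPM in CPC3 and at 56.9 to 506 CPM in the others, and Runx1 at 7.38 CPM and 6.17 to 93.5 CPM. Cebpa did not exceed 0.629 CPM in any cell. Gfi1 and Cebpe, factors of granulocytes, had no count.

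Macrophage markers gave a summed level of 25 CPM in CPC3, within the range of the other cells (0.176 to 81.3 CPM, median 15.9 CPM), and 10 of 20 had no count in any cell. Among those at 0 throughout were C1qa, C1qb and C1qc, Mrc1 and Cd163. Mertk, a receptor for apoptotic cells, was the only one at 10 CPM or more in CPC3, at 15.3 CPM, beside up to 21.5 CPM elsewhere. Adgre1, which encodes the macrophage antigen F4/80, had 6 counts in CPC3 (1.58 CPM), and Mpeg1, which encodes perforin-2, had 15 (3.96 CPM). Both were highest in CPC3, with no more than 0.210 CPM in any other cell. Of the 20 markers, 5 had a count in CPC3, beside 11216 of all 21729 genes.

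The other leukocyte lists split between single genes and zeros. S100a8, a calcium-binding protein of neutrophils, stood at 258 CPM in CPC3 (977 counts) and at no more than 4.63 CPM in the others, while its partner S100a9 had no count in any cell. Itga4, an integrin chain of leukocytes and of some stromal cells, stood at 53.0 CPM in CPC3 and at 0 to 15.0 CPM elsewhere. H2-DMa, which loads peptides on class II molecules, stood at 52.5 CPM and at 0 to 19.9 CPM, but the invariant chain gene Cd74 had no count.

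Cyba, a subunit of the NADPH oxidase that many cells share, stood at 652 CPM in CPC3 and at 178 to 535 CPM in the others, whereas its phagocyte partner Cybb had no count. Markers of mast cells and of T, B and NK cells had no count in CPC3. In the neutrophil, class II and oxidase lists, most of the CPC3 level came from 1 gene.

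**Figure D4:**
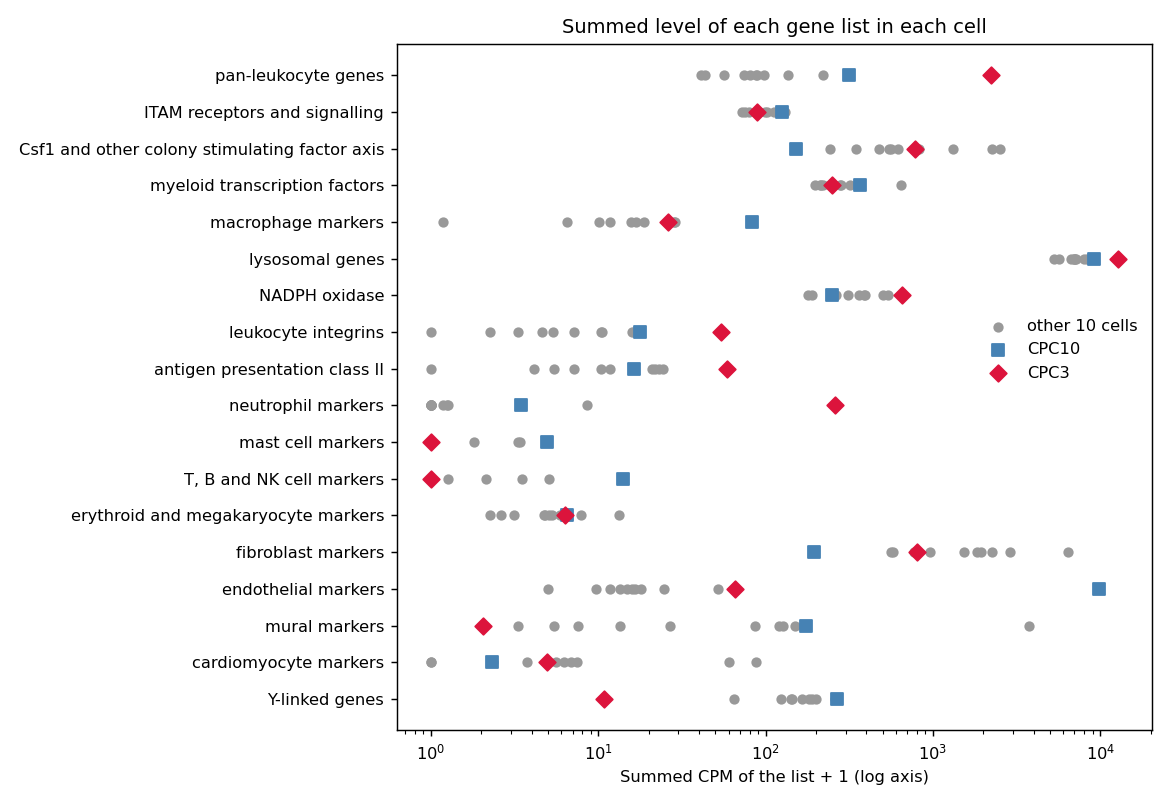
Summed CPM of each gene list (plus 1, log axis), with CPC3 as a diamond, CPC10 as a square and the other 10 cells as points. CPC3 lies above all other cells for the pan-leukocyte genes (2209 CPM with Cd53 included), neutrophil markers, lysosomal genes (12775 CPM), integrins, class II and NADPH oxidase genes, and within their range for the macrophage markers (25 CPM) and the ITAM genes (87.5 CPM).

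Lysosomal genes were highest in CPC3 as a sum. The 15 genes of that list, which all cell types use, added up to 12775 CPM in CPC3 and to 5303 to 9159 CPM in the other cells (median 7063 CPM). All 15 reached 10 CPM in CPC3, and none was called. Of the 15, 6 were highest there, beside 7.63% of all genes with a count. The median difference from the median of the other cells was 0.56 on the log2 scale. Npc2, a cholesterol carrier of the lysosome, stood at 2152 CPM in CPC3 beside 260 to 895 CPM. The protease genes Ctsl and Ctsz stood at 1894 and 1537 CPM, beside up to 1008 and 821 CPM elsewhere. Cd68 was lower than its relatives Lamp1 (1805 CPM in CPC3, 566 to 1758 CPM in the others) and Lamp2 (792 CPM, 303 to 882 CPM) in counts not corrected for length, and Lamp2 was not highest in CPC3. Ctss, the cathepsin most specific to antigen-presenting cells, had no more than 1 count in any cell.

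Markers of other cell types were read beside the 10 genes. Fibroblast markers summed to 798 CPM in CPC3 and to 192 to 6420 CPM in the other cells (median 1523 CPM), with 6 of 10 at 10 CPM or more in CPC3. Dcn, a small proteoglycan of connective tissue, was called in CPC3, at 223 CPM beside no more than 12.4 CPM. Pdgfra, a receptor of mesenchymal cells, stood at 276 CPM beside 0.247 to 175 CPM, whereas Col1a2 stood at 22.1 CPM beside a median of 744 CPM. Of the 10 markers, 2 (Dcn and Pdgfra) were highest in CPC3, beside 7.63% of all genes with a count. Col1a1 stood at 12.9 CPM in CPC3 beside a median of 182 CPM, and Lum, Thy1, Tcf21 and Postn had no count in CPC3.

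Endothelial markers summed to 64.3 CPM in CPC3 and to 3.97 to 9792 CPM in the others, the highest being CPC10. Mural and cardiomyocyte markers summed to 1.05 and 3.96 CPM in CPC3. The part of these other transcripts in the Cd53, Csf1r and Cd68 levels of CPC3 was not tested.

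Cd53 was the eighth gene of the table when genes were ordered by how far CPC3 stood above the highest other cell on the log2(CPM + 1) scale, at 6.17. Rsad2, an antiviral protein induced by interferon, led at 9.42, with 3228 counts in CPC3 and 1 elsewhere. Ccl8, a chemokine that draws monocytes, stood at 8.08 and 326 CPM. Cmpk2, Zbp1, Oas3 and Ifi209, each known to be induced by interferon, stood at 6.48, 5.11, 4.61 and 4.58.

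Other leading genes were Dkk3 at 8.45 and Igfbp6 at 6.15, which encode secreted proteins, the latter an antagonist of insulin-like growth factors. Atp6v0d2, a subunit of the lysosomal proton pump in osteoclasts and macrophages, stood at 6.06 and 257 CPM. Lilrb4a, an inhibitory receptor of myeloid cells, stood at 5.20 and 57.2 CPM. S100a8 stood at 5.52. Of the 20 leading genes, 7 had no count in any other cell, and Cd53 was not one of them. CPC3 was low for Cdk1, the kinase that drives mitosis, with 0.527 CPM beside 11.4 to 1056 CPM in the others.

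**Figure D5:**
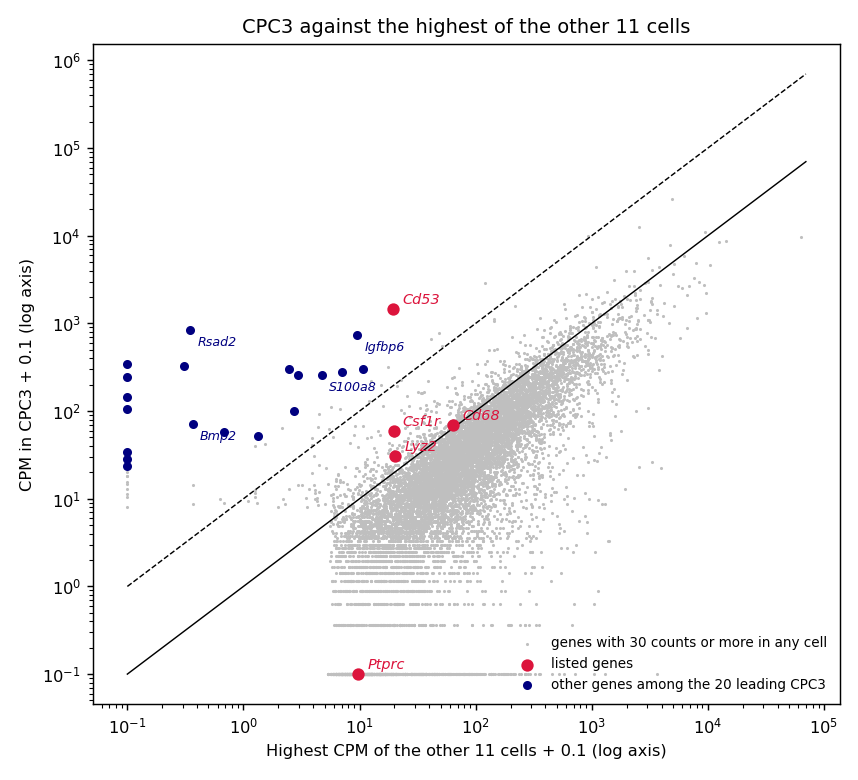
CPM + 0.1 in CPC3 (vertical log axis) against the highest of the other 11 cells (horizontal log axis) for genes with 30 counts or more in any cell, with a solid line at equality and a dashed line at 10 times; red points are listed genes and dark blue points the other genes of the 20 leading in CPC3. Cd53 stands 75.4 times above the highest other cell, Csf1r 3.01 times and Lyz2 1.5 times, Cd68 lies near equality at 1.07, and Ptprc is at 0 in CPC3.

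Genes whose levels followed those of the listed genes were sought by Pearson's r of log2(CPM + 1). The 10 genes nearest to the mean of the listed genes over 12 cells, led by Gsta3 (0.92), Abi3bp (0.91), Rsph1 (0.89) and S100a8 (0.88), were all highest in CPC3, so this measure again read that cell. Without CPC3, over 11 cells, the profile of Lyz2 was nearest to D430042O09Rik (0.95), that of Csf1r to Fabp5 (0.86) and that of Cd68 to Gfm1 (0.94) and Ubap2 (0.92). The 10 nearest to Cd68 also held Kif15, Ska3, Knl1 and Nuf2, which act on the mitotic spindle or its attachment to chromosomes. None of the 30 genes nearest to Lyz2, Csf1r or Cd68 was a member of the 10 or of the blood cell lists. Each correlation is a description over 11 or 12 cells of 1 group, and it was the highest found among many genes.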

How the data were processed

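Polyadenylated RNA of 12 cultured CPCs, taken 1 cell at a time, was copied with Smart-Seq v4, made into Nextera XT libraries and read as pairs. The authors mapped reads to mm10 with STAR (2.5.2b in the submitters' processing notes) and deposited raw counts per gene and cell, without normalization. The counting program, its annotation and its strand rule are not given in the sources used here, so overlapping genes and close copies can gain or lose reads.

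Columns were matched to cells by name. Each count was expressed per 1000000 counts of its cell (CPM), or divided by exon length from GENCODE vM21 and rescaled to 1000000 per cell. Of the genes, 98.4% had a length. The study's filter of 1000 genes and 10% mitochondrial counts removed 0 cells, and no doublet caller was run, since the cells were picked singly. The smallest chi-square per degree of freedom between a pair of cells was 48.5, so no pair of columns held the same library. Totals of 3453708 to 5690184 counts set limits of 0.527 to 0.869 CPM for a count of 0.

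A gene was called in CPC3 at 30 counts or more and at least 10 times the highest other cell, where a cell at 0 was set to 3 counts. With 1 group and no animal or culture named, no test was made between cells. Intervals were exact, at 95%, from Poisson counts or, for a ratio of a pair of counts, from the binomial. The genes, CPC3 and all gene lists were chosen with earlier results of these data known, and the tetraspanins, lysozymes, lysosomal membrane proteins and overlapping genes after their values were seen. Named genes were the 10 genes, list genes, the 20 genes by which CPC3 stood highest above and the 10 by which it stood lowest below every other cell, and the 10 nearest by correlation. Scales, thresholds, reference cells, depth and the cells included were varied. The call rule and the Poisson interval were checked on simulated counts, and the other steps were not. Computations used scipy 1.17.1 with numpy 2.4.6 and pandas 2.3.3 under Python 3.11.15, and figures used matplotlib 3.10.9.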

Additional observations from a re-analysis of the deposited data

How the results depend on the processing

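Of 52 alternative values over 6 results, 11 moved. The 52 include values that could not move, so 11 of 52 understates how far the results depend on the settings. A change of sign was not looked for, since the results were counts, a share and a median difference that was 0. A count of genes or values was taken to have moved past 1.5 times the reported count. The share was taken to have moved when it changed by more than the counting error of the share in summed raw counts. That interval, 76.2 to 78.1%, does not hold the CPM share of 80.1%, so it served only as a yardstick. Calling a gene at 3 times the highest other cell gave 2 genes (Cd53 and Csf1r), and setting CPC3 against the median of the other cells gave 3 (Cd53, Csf1r and Cd68) in place of 1. The CPC3 share of the summed level, 80.1%, was 83.3% with median-of-ratios size factors, 83.9% without Lyz2, 76.2% per kilobase of exon and 29.6% without Cd53. The number of values at 10 CPM or more outside CPC3, 13, became 31 at a threshold of 1 count, 29 at 5 counts, 29 at 1 CPM, 2 at 50 CPM and 1 without Lyz2, Csf1r and Cd68. Why the share rose with size factors was not tested. The median difference over the 10 genes was 0 under every alternative, among them leaving out each other cell. This was fixed in advance, since 6 of the 10 genes are at 0 in CPC3, 5 of them in every cell. The 4 genes highest in CPC3 became 3 per kilobase of exon, where CPC9 led for Cd68, and stayed 4 in number under the other 4 alternatives. The number without a count was 5 under each alternative run for it, and none of these alternatives could have lowered it. Of the alternatives, 6 were chosen after seeing the data. No paired analysis was possible because all 12 cells form 1 group. The contrast rests on 1 cell, so cell, library and culture cannot be told apart. By the limit of 3 counts, a count of 0 allows a level of up to 0.527 to 0.869 CPM, depending on the cell.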
